A study of Papio anubis and Macaca fascicularis and Castor canadensis with 48 samples.

Results

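Genes that mark the distal nephron and collecting duct of the kidney were followed across bulk RNA sequencing of 4 organs from 8 mammal species. There are 10 of them, taken by mouse Ensembl gene ID from the 16816 rows of 1 count table, as a set of genes known from the kidney. The rule that takes them uses no measured value, although the set was proposed with earlier results of these data known. They are Aqp2 (ENSMUSG00000023013), Aqp3 (ENSMUSG00000028435), Scnn1a (ENSMUSG00000030340), Scnn1b (ENSMUSG00000030873), Scnn1g (ENSMUSG00000000216), Cldn8 (ENSMUSG00000050520), Slc12a3 (ENSMUSG00000031766), Slc12a1 (ENSMUSG00000027202), Umod (ENSMUSG00000030963) and Kcnj1 (ENSMUSG00000041248). The table lists IDs alone, and these names come from the definition of the set. All 10 IDs were present.

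The distal nephron reclaims the last of the filtered salt and water and sets the final composition of urine. In the thick ascending limb, Slc12a1 encodes the apical sodium, potassium and chloride cotransporter NKCC2, which loop diuretics block. Kcnj1 encodes ROMK, the potassium channel that returns potassium to the lumen there and that also secretes it in the collecting duct. Umod encodes uromodulin, the protein that this segment releases into the urine in large amounts. The next segment, the distal convoluted tubule, carries the thiazide-sensitive cotransporter NCC encoded by Slc12a3. Principal cells of the connecting tubule and collecting duct take up sodium through the epithelial sodium channel ENaC, whose subunits are encoded by Scnn1a, Scnn1b and Scnn1g and which aldosterone controls. Aqp2 encodes the apical water channel that vasopressin places in the membrane of these cells, Aqp3 a water and glycerol channel of their basolateral side, and Cldn8 a tight junction protein of the aldosterone-sensitive segments. The collecting duct and thick ascending limb run through both cortex and medulla, whereas the distal convoluted tubule lies in the cortex.

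The series holds 48 libraries in 15 groups of 1 species and 1 organ each, all from male wild-type animals that the labels call young adults, with no treatment given. Kidney libraries came from baboon (Papio anubis, 6), long-tailed macaque (Macaca fascicularis, 5) and American black bear (Ursus americanus, 1). The other 36 libraries were baboon brain (6) and liver (6), macaque cerebellum (6) and liver (6), beaver brain (2) and liver (2), chipmunk liver (2), sugar glider liver (2), bear liver (1), tube-nosed bat liver (1), white-footed mouse liver (1) and white-footed mouse brain (1). Baboon, beaver and macaque organs were collected at a primate research center and the others in an earlier collection, so collection and species cannot be told apart for bear. The labels do not say which part of a kidney was taken, and nothing in them says how the animals of 1 group were related. The total count was 15.8 M to 18.7 M (M, mega) in baboon kidneys, 17.4 M to 21.0 M in macaque kidneys and 14.5 M in the bear kidney. Values are given as CPM, each count scaled to the total of its library and expressed per mega counts. CPM is not divided by gene length, so levels of different genes are not compared. Counts of 8 species were listed under mouse IDs, and a level between species may carry differences in how many reads were assigned.

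All 10 genes were counted in all 12 kidneys, and each kidney held more of each gene than any of the 36 libraries from other organs. Of all 16244 genes with a count anywhere, 1.91% were separated in this way. The genes of the set were chosen as kidney genes, so this count checks the label of the organ. The plot of CPM in all 48 libraries shows these gaps.

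**Figure D1:**
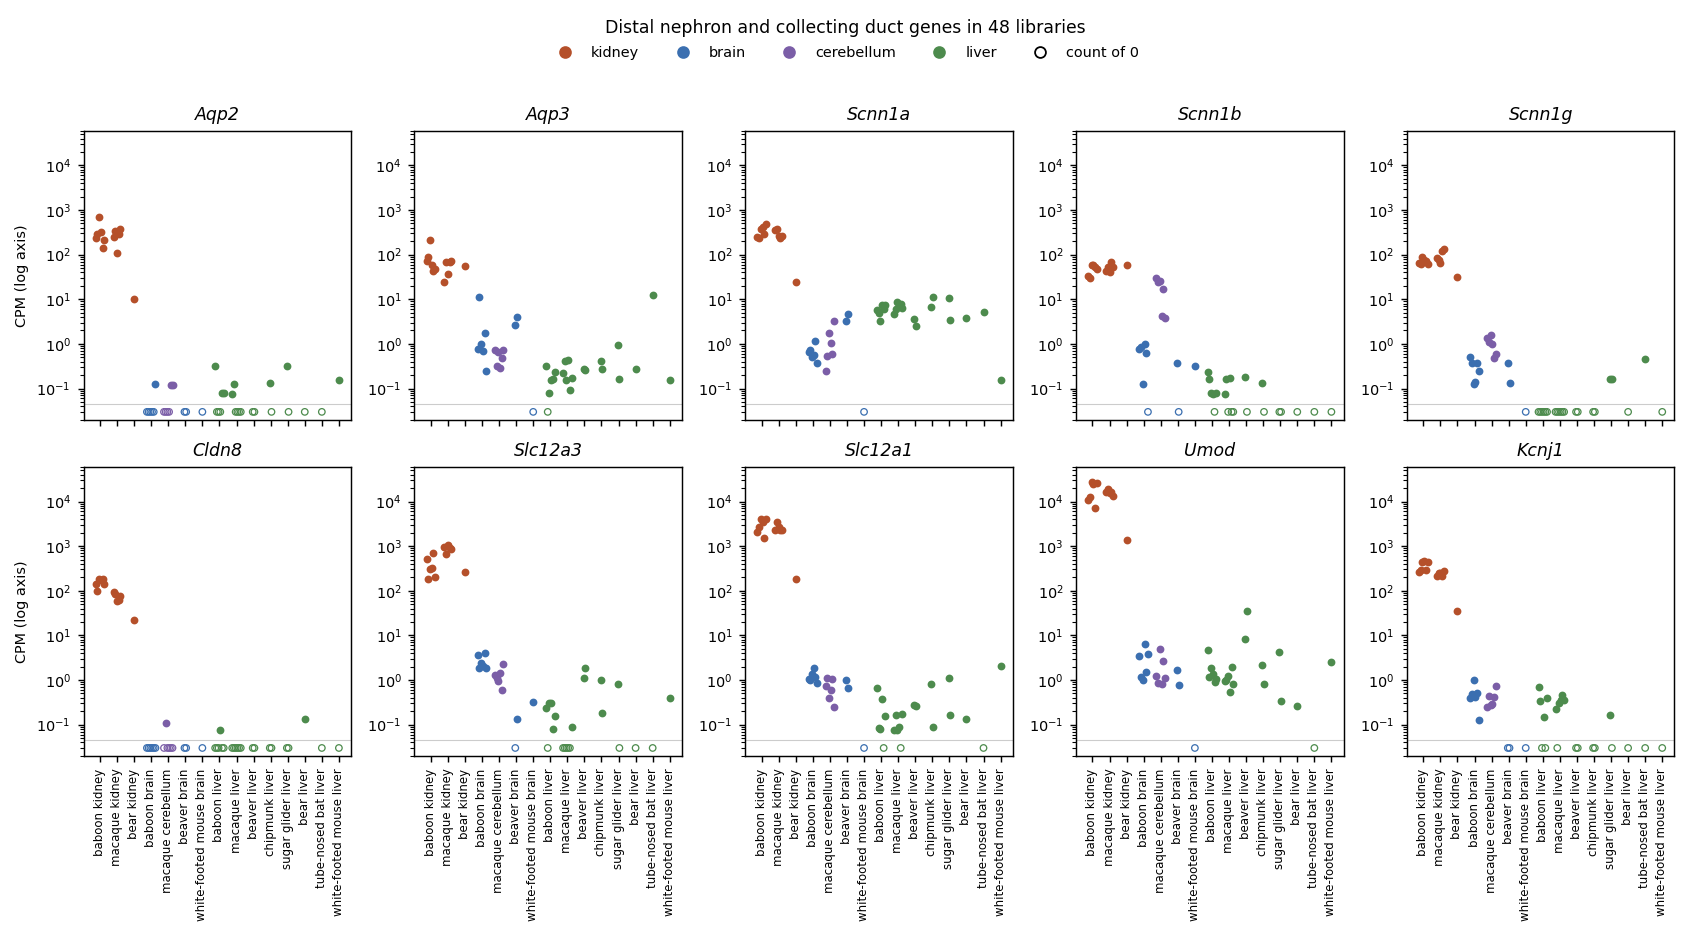
CPM on a log axis of each of the 10 genes in each of the 48 libraries, grouped by species and organ, with 1 point per library and open circles for a count of 0. Kidney points lie above all other points in every panel, and the narrowest gap is that of Scnn1b, with 30.0 CPM in the lowest kidney and 29.75 CPM in the highest macaque cerebellum.

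Within baboon and within macaque, kidney was compared with each other organ by edgeR's quasi-likelihood F test, with p adjusted by the Benjamini-Hochberg method over all genes tested and a gene called at an adjusted p under 0.05. Each of the 10 genes was called higher in kidney in all 4 comparisons, and 0 were called lower. Among all genes tested in baboon, 35.3% were called higher and 31.2% lower in kidney than in liver, and 39.1% higher and 38.2% lower in kidney than in brain. In macaque, 32.7% were called higher and 30.4% lower in kidney than in liver, and 37.8% higher and 37.9% lower in kidney than in cerebellum. The median log2 fold change of the set was 10.02 against baboon liver and 9.25 against baboon brain, whereas all genes had medians of 0.06 and 0.02. It was 12.11 against macaque liver and 9.52 against macaque cerebellum, whereas all genes had 0.02 and -0.02. With filtering on brain or cerebellum and liver alone, 4 of the 10 genes would have been tested in baboon and 5 in macaque. The other 6 and 5 passed through kidney, where they are high, so these counts and medians describe the set and support nothing. They were Aqp2, Aqp3, Cldn8 and Kcnj1 in both species, with Scnn1b and Scnn1g in baboon and Slc12a1 in macaque. The p-values printed below for these genes in kidney against another organ carry the same limit. Where a gene had no count in the other organ its fold was also set at a lower bound against the limit that a count of 0 allows, and the medians were then 9.46, 9.25, 9.76 and 9.52. Fold changes are on counts scaled by TMM factors, which adjust for the composition of a library. With library totals alone, as in CPM, the median of all genes moved by 1.41 in baboon and 1.24 in macaque kidney against liver, and 90.8% and 89.9% of the called genes were higher in kidney, against 53.1% and 51.9% with TMM. Against brain and cerebellum it moved by -0.02 and -0.21. For a gene higher in kidney, a fold between the CPM of kidney and liver is therefore larger than the fold change printed beside it. All 10 genes were called higher under each of these scalings. Kidney against liver and kidney against the neural organ share their kidney libraries within a species. In bulk RNA, fewer cells of a type and less RNA per cell cannot be told apart.

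Umod took the largest share of the counts of the set, with no correction for gene length. It made up 0.73% to 2.76% of all counts in the 6 baboon kidneys and 1.35% to 1.94% in the 5 macaque kidneys, and ranked between 2nd and 7th among all genes by count in these 11 libraries. The 10 genes together made up 1.06% to 3.41% of counts in baboon kidneys and 1.80% to 2.49% in macaque kidneys. Umod ranged from 7295 through a median of 18520 to 27609 CPM in baboon kidneys, against 0.886 through 1.26 to 4.79 CPM in baboon livers and 1.01 through 2.49 to 6.35 CPM in baboon brains. Its log2 fold change was 11.78 ± 0.74 (SE) over liver (edgeR adjusted p = 1.12e-10) and 12.62 ± 0.76 over brain (edgeR adjusted p = 2.26e-11). The macaque kidneys held 16664, 19423, 15179, 16613 and 13529 CPM of Umod, against 0.528 through 0.978 to 1.92 CPM in macaque livers and 0.829 through 1.16 to 5.06 CPM in cerebella. No Umod value outside the kidney came within 100-fold of a primate kidney: the nearest was a beaver liver at 35.0 CPM, and the lowest primate kidney was 208-fold above it.

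Slc12a1, the thick ascending limb cotransporter, ranged from 1510 through 3117 to 4157 CPM in baboon kidneys. The baboon livers held 0 to 0.667 CPM and the baboon brains 0.874 to 1.81 CPM. In macaque kidneys Slc12a1 was at 2281, 3527, 2629, 2254 and 2302 CPM, against 0 to 0.174 CPM in livers and 0.243 to 1.09 CPM in cerebella. The log2 fold change over liver was 12.23 ± 0.54 in baboon and 13.43 ± 0.41 in macaque (edgeR adjusted p = 1.24e-12 and 5.62e-14). Kcnj1, the ROMK channel, showed the same separation. Its 6 baboon kidneys lay between 260.5 and 456.3 CPM, against at most 0.706 CPM in a baboon liver and 1.01 CPM in a baboon brain. Its 5 macaque kidneys lay between 212.0 and 274.0 CPM, against at most 0.456 CPM in a macaque liver and 0.728 CPM in a cerebellum. Its log2 fold change over liver was 8.97 ± 0.49 in baboon (edgeR adjusted p = 1.67e-11) and 8.49 ± 0.31 in macaque (edgeR adjusted p = 2.88e-13).

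Slc12a3, the cotransporter of the distal convoluted tubule, was at 520.1, 182.3, 308.4, 328.4, 696.0 and 202.6 CPM in baboon kidneys 1 to 6. Baboon livers held 0 to 0.311 CPM and baboon brains 1.86 to 3.99 CPM. The macaque kidneys were at 942.5, 670.2, 1045, 894.2 and 871.3 CPM, against 0.598 to 2.30 CPM in cerebella and a single read pair in 1 of the 6 livers. Kidney and other organs did not come near each other in either species. In baboon the log2 fold change of kidney was 9.54 ± 0.51 over liver (edgeR adjusted p = 1.26e-11) and 7.16 ± 0.42 over brain (edgeR adjusted p = 1.87e-11), and in macaque it was 9.62 ± 0.31 over cerebellum (edgeR adjusted p = 2.42e-14).

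The 3 sodium channel subunits differed in where else they were counted. Scnn1a, the alpha subunit, was at 233.5 to 477.0 CPM in baboon kidneys and 237.4 to 382.8 CPM in macaque kidneys. It was also counted in every liver, at 3.35 to 7.58 CPM in baboon and 4.63 to 8.53 CPM in macaque. Its kidney to liver difference was the smallest of the set in both species, with log2 fold changes of 4.45 ± 0.23 in baboon (edgeR adjusted p = 6.92e-12) and 4.20 ± 0.36 in macaque (edgeR adjusted p = 1.3e-08).

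Scnn1b, the beta subunit, was at 30.0 to 58.6 CPM in baboon kidneys and at 42.8, 52.4, 40.7, 66.8 and 51.7 CPM in macaque kidneys. The macaque cerebella held 29.75, 24.4, 26.25, 4.19, 16.9 and 3.82 CPM in replicates 1 to 6, so that cerebellum and kidney of macaque were close without overlapping. The log2 fold change of macaque kidney over cerebellum was 1.74 ± 0.45 (edgeR adjusted p = 0.00188), the smallest of the 40 kidney comparisons of the set. Baboon brains had at most 0.977 CPM, and the log2 fold change of baboon kidney over brain was 6.37 ± 0.46. Scnn1g, the gamma subunit, was at 61.5 to 88.5 CPM in baboon kidneys and 63.8 to 132.6 CPM in macaque kidneys, and had no count in any of the 12 baboon and macaque livers. Taking 3 read pairs (6 counts) over a group as the limit that a count of 0 allows, Scnn1g was at least 669-fold higher in baboon kidney than in liver and at least 982-fold higher in macaque kidney than in liver. In the RefSeq annotation of the baboon assembly Panubis1.0, SCNN1B and SCNN1G are neighbours on 1 chromosome, with 0 protein-coding genes between them.

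Aqp2, the vasopressin-regulated water channel, was at 234.3, 293.4, 705.1, 314.8, 144.2 and 217.1 CPM in baboon kidneys 1 to 6 and at 244.5, 340.1, 110.3, 284.1 and 385.2 CPM in macaque kidneys 1, 2, 3, 5 and 6. In the 36 other libraries it never exceeded 0.322 CPM, and 25 of these libraries had no count of it. Its log2 fold change was 10.49 ± 0.58 in baboon kidney over liver (edgeR adjusted p = 2.43e-11). Aqp3, the basolateral channel, reached farther outside the kidney. Its baboon kidneys were at 71.6, 87.8, 212.1, 58.7, 43.1 and 47.1 CPM, and its macaque kidneys at 24.7, 69.5, 36.7, 69.7 and 73.95 CPM. Outside the kidney the highest Aqp3 values were 12.6 CPM in the tube-nosed bat liver and 11.02 CPM in baboon brain 2. Baboon kidney exceeded brain by 5.09 ± 0.70 and macaque kidney exceeded liver by 6.52 ± 0.38 on the log2 scale (edgeR adjusted p = 2.53e-06 and 8.91e-11). Without baboon brain 2 the first of these was 6.57, and the gene was still called. Cldn8, the tight junction protein, was the nearest to absent elsewhere: it had no count in 33 of the 36 other libraries and 1 read pair in each of the remaining 3. The lowest baboon and macaque kidneys held 98.4 and 59.7 CPM of Cldn8. It was at least 2420-fold higher in baboon kidney than in baboon brain and at least 766-fold higher in macaque kidney than in macaque liver.

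Baboon kidney was next set against macaque kidney, by the same test over the 11 primate kidneys. Of 13082 genes tested, 30.9% were called in either direction, 15.3% higher and 15.6% lower in baboon. Of the 10 genes, 4 were called, 2 higher and 2 lower, to be read against the 30.9% of all genes. With library totals alone for scaling, the share of called genes that were higher in baboon was 60.2%, against 49.5% here. The median log2 fold change of the set was 0.12, and that of all genes was 0.00.

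Cldn8 was higher in baboon. Its kidneys held 143.7, 98.4, 185.8, 174.3, 183.3 and 140.2 CPM in baboon, against 95.6, 84.2, 59.7, 61.3 and 78.25 CPM in macaque. No baboon kidney was as low as the highest macaque kidney. The means were 154.3 ± 33.7 CPM (SD, n = 6) in baboon and 75.8 ± 15.3 CPM (n = 5) in macaque, with a log2 fold change of 0.95 ± 0.18 (SE; 95% interval 0.57 to 1.33; edgeR adjusted p = 0.00172). Kcnj1 was also higher in baboon, with 260.5, 284.9, 441.0, 456.3, 291.0 and 434.3 CPM, against 212.8, 247.3, 249.0, 212.0 and 274.0 CPM in macaque. Only the lowest baboon kidney fell inside the macaque range. The log2 fold change of Kcnj1 was 0.52 ± 0.15 (95% interval 0.18 to 0.85; edgeR adjusted p = 0.0227). Leaving out macaque kidney 1 or 5 ended that call, with log2 fold changes of 0.48 and 0.46 and edgeR adjusted p of 0.0543 and 0.0581, and so did a fit of all 48 libraries (edgeR adjusted p = 0.205).

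Slc12a3 was lower in baboon, at 373 ± 199 CPM (SD, n = 6), against 885 ± 137 CPM (n = 5) in macaque. Baboon kidney 5, at 696.0 CPM, was the only baboon kidney above the lowest macaque kidney, at 670.2 CPM. The log2 fold change was -1.30 ± 0.31 (95% interval -1.99 to -0.62; edgeR adjusted p = 0.00784). Scnn1g was called lower in baboon as well, with a log2 fold change of -0.49 ± 0.16 (95% interval -0.84 to -0.14; edgeR adjusted p = 0.0355), although its ranges overlapped, at 61.5 to 88.5 CPM in baboon and 63.8 to 132.6 CPM in macaque. That call held in 8 of 18 other settings. It was lost without macaque kidney 5 or 6 and without baboon kidney 1, 2, 4, 5 or 6, with log2 fold changes of -0.35 without macaque kidney 6 (edgeR adjusted p = 0.103) and -0.42 without macaque kidney 5 (edgeR adjusted p = 0.0891). Cldn8 and Slc12a3 were called in all 18 of these settings, and Kcnj1 in 15. The 18 settings include the replicate number as a block, which joins kidneys of different animals and so checks no call between the species. With that block Scnn1g was not called, and Cldn8, Slc12a3 and Kcnj1 were.

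The other 6 genes were not called between the species. Their log2 fold changes were 0.15 for Aqp2 (95% interval -0.68 to 0.97), 0.59 for Aqp3 (-0.32 to 1.5), 0.10 for Scnn1a (-0.35 to 0.54), -0.20 for Scnn1b (-0.58 to 0.19), 0.14 for Slc12a1 (-0.41 to 0.68) and 0.06 for Umod (-0.62 to 0.75). The intervals of Aqp2 and Umod hold differences of more than 1.5-fold in both directions, and those of Aqp3 and Slc12a1 in the direction of more in baboon. Of the thick ascending limb genes, Kcnj1, whose channel also works in the collecting duct, was called and Slc12a1 and Umod were not. Of the sodium channel subunits Scnn1g alone was called. Whether these genes differ from one another in their species difference was not tested.

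**Figure D2:**
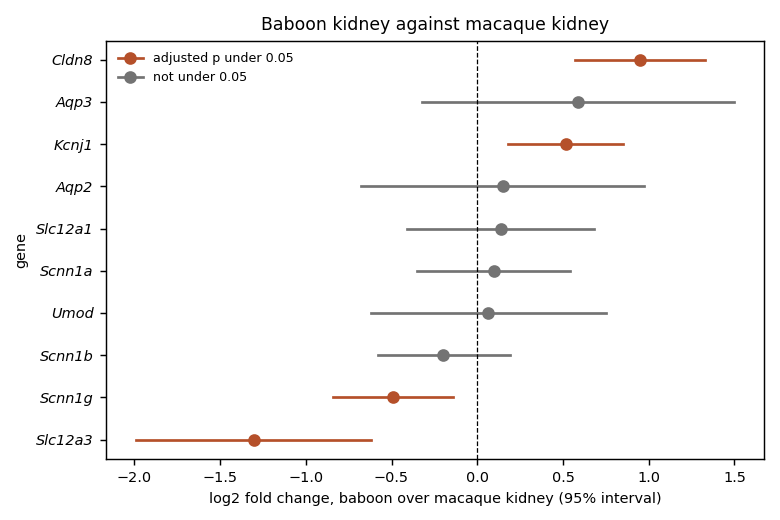
Log2 fold change of baboon kidney over macaque kidney for each of the 10 genes, with its 95% interval, coloured by whether the edgeR adjusted p was under 0.05. Cldn8 at 0.95 and Slc12a3 at -1.30 lie farthest from 0, and the intervals of the 6 genes that were not called cross 0.

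Most genes of the set varied more between baboon kidneys than between macaque kidneys, and Scnn1g varied less. The difference between the species in spread was not tested. The coefficient of variation (CV, SD over mean of CPM) had a median of 32.7% over the set in baboon kidneys and 20.5% in macaque kidneys. Over all genes with a mean of at least 20 CPM, 7477 in baboon and 7333 in macaque, the median was 12.9% and 12.5%. Aqp3 varied most in baboon (73.3%), followed by Aqp2 (62.5%), Slc12a3 (53.3%) and Umod (48.7%), and Scnn1g varied least (14.6%, against 30.7% in macaque). Cldn8 had 21.8% in baboon and 20.2% in macaque. Among genes whose mean lay within 2-fold of their own, the CV of Aqp3, Aqp2 and Slc12a3 stood at percentiles 99.6, 99.1 and 97.8 in baboon, and Scnn1g at 63.9, the lowest of the set. In macaque Aqp3, Aqp2 and Scnn1g stood at 97.3, 96.2 and 93.8, Slc12a3 at 54.9 and Kcnj1 at 44.1. For Umod only 5 genes had such a mean in either species, too few to place it. In macaque the water channels again varied most, Aqp3 with 41.1% and Aqp2 with 38.7%, while Kcnj1 (11.1%), Umod (13.4%) and Slc12a3 (15.5%) varied least.

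Single kidneys carried part of this spread. Baboon kidney 3 held the most Aqp2, Aqp3, Scnn1b, Scnn1g, Cldn8 and Umod of the 6, and lay above the geometric mean of its group for 9 of the 10 genes, all but Slc12a3. Without it the CV of Aqp2 in baboon fell to 28%, and that of Aqp3 to 29.8%. Baboon kidney 5 stood out the other way, with the least Aqp2, Aqp3, Slc12a1 and Umod and the most Slc12a3. Baboon kidney 2 held the least of all 3 sodium channel subunits, Cldn8 and Slc12a3. Among macaque kidneys, kidney 3 combined the least Aqp2, Scnn1b, Scnn1g and Cldn8 with the most Slc12a3, and kidney 2 the most Slc12a1 and Umod with the least Slc12a3. Without macaque kidney 3 the CV of Aqp2 in macaque was 19.7%, without kidney 1 that of Aqp3 was 27.7%, and without kidney 2 that of Slc12a1 was 7.4%.

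**Figure D3:**
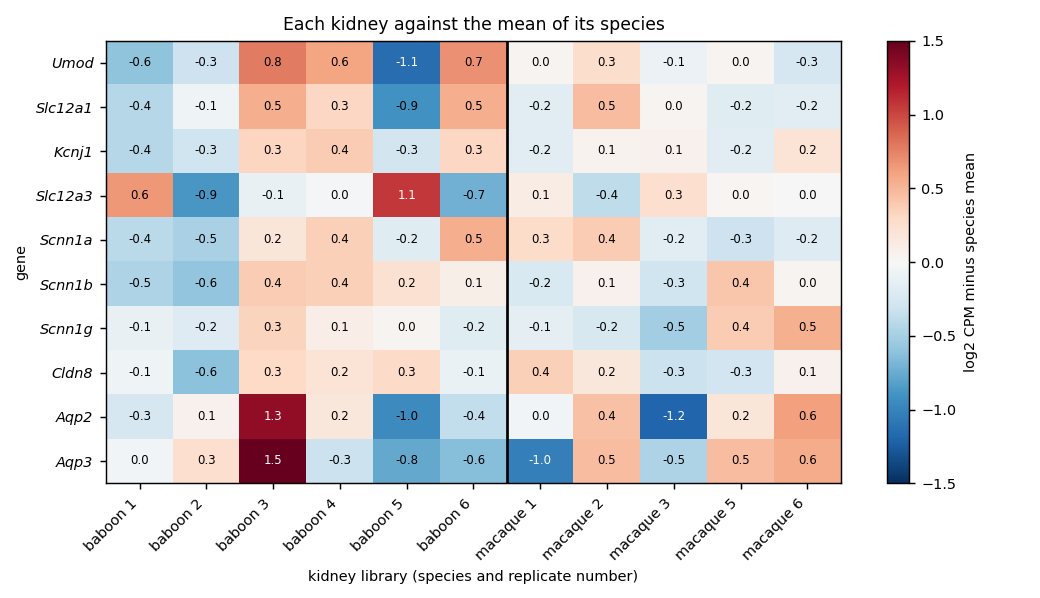
Log2 CPM of each gene in each primate kidney minus the mean of its species, with red above and blue below that mean and the difference printed in each cell. Baboon kidney 3 is above the mean for 9 of 10 genes, and in baboon kidney 5 Slc12a3 is above while Umod, Slc12a1, Aqp2 and Aqp3 are below it.

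Ratios of 2 genes inside 1 library do not depend on its total count. Counts of Slc12a1 per count of Slc12a3 were 4.05, 14.9, 13.5, 10.7, 2.17 and 20.5 in baboon kidneys 1 to 6, a 9.45-fold range. In macaque kidneys 1, 2, 3, 5 and 6 the same ratio was 2.42, 5.26, 2.52, 2.52 and 2.64, a 2.17-fold range. Baboon kidneys 2, 3, 4 and 6 lay above all macaque kidneys, and baboon kidneys 1 and 5 did not. Umod per Slc12a3 ranged from 10.5 through a median of 72.2 to 127 in baboon and from 14.5 through 17.7 to 29.0 in macaque. Aqp2 per Slc12a3 ranged from 0.207 through 1.01 to 2.29 in baboon and from 0.106 through 0.318 to 0.507 in macaque. The lowest baboon value of all 3 ratios was that of kidney 5, the kidney with the most Slc12a3.

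Within the thick ascending limb, Umod per Slc12a1 lay between 4.77 and 6.85 in the 6 baboon kidneys, a 1.44-fold range, although the CPM of Umod itself spanned a 3.78-fold range in them. In the macaque kidneys it lay between 5.51 and 7.37, a 1.34-fold range, near the 1.44-fold range of the CPM of Umod. Kcnj1 per Slc12a1 spanned 1.86-fold in baboon and 1.70-fold in macaque, both wider than the ranges of the CPM of Kcnj1, 1.75-fold and 1.29-fold. Aqp3 per Aqp2, both of the collecting duct, spanned 1.64-fold in baboon kidneys, from 0.187 to 0.306, and 3.29-fold in macaque kidneys, from 0.101 to 0.332. Kcnj1 also belongs to the collecting duct, so its ratio is not of 1 segment alone. These 3 ratios were chosen after the values were seen.

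Over the 6 baboon kidneys, all 45 pairs of the genes were correlated on log2(CPM + 1), with two-sided exact permutation tests. Only the 9 pairs with Aqp2 were planned. None of the 45 had an adjusted p under 0.05, and 5 had an unadjusted exact p under 0.05. A permutation test over 6 kidneys has only 720 orderings. No single pair by itself could therefore reach an adjusted p under 0.05 over 45 pairs, whatever its r. The lack of such pairs is no evidence that these genes vary apart. Slc12a1 and Umod had the highest correlation, with Pearson's r = 0.99 (exact permutation p = 0.00278, adjusted over 45 pairs 0.125) and Spearman's rho = 0.94 (exact permutation p = 0.0167, adjusted 0.25). Without the 2 kidneys farthest from the median of Slc12a1, r was 0.96. Kcnj1 correlated with Umod at r = 0.91 (exact permutation p = 0.0764) and with Scnn1a at r = 0.93 (exact permutation p = 0.0431), both with an adjusted p of 0.358.

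Aqp2 and Aqp3 had r = 0.93 (exact permutation p = 0.0125, adjusted over the 9 Aqp2 pairs 0.113) and rho = 0.83 (exact permutation p = 0.0583). Without baboon kidneys 3 and 5, the 2 farthest from the median of Aqp2, r was 0.46 over the remaining 4, so the relation rested in part on those kidneys. With any 1 kidney left out r was 0.71 to 0.97. Slc12a3 ran against Slc12a1 with r = -0.75 (exact permutation p = 0.0986, adjusted 0.358) and rho = -0.66, and r was -0.89 without the 2 farthest kidneys. Of its 9 pairs, Slc12a3 had a negative r in 6. No correlation was computed over the 5 macaque kidneys alone, and their values stand beside those of baboon in the plot of gene pairs.

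**Figure D4:**
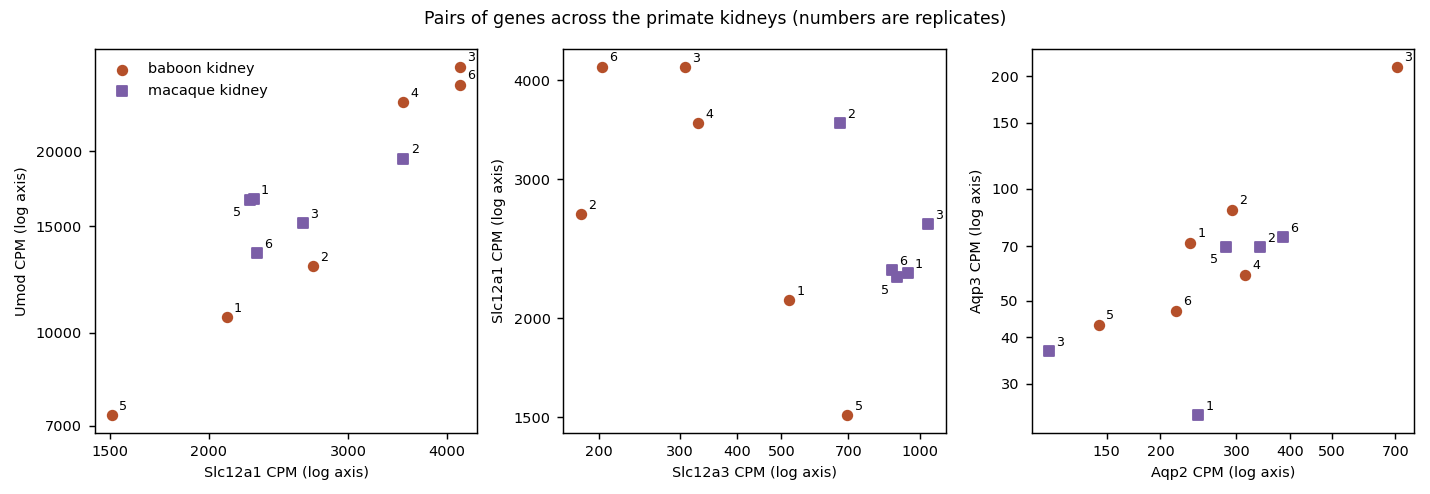
CPM of 3 pairs of genes on log axes in the 6 baboon and 5 macaque kidneys, 1 point per library with its replicate number. Over the 6 baboon kidneys, Umod rises with Slc12a1 (r = 0.99) and Slc12a1 is low where Slc12a3 is high (r = -0.75). In the same kidneys Aqp3 is high where Aqp2 is high (r = 0.93, and 0.71 to 0.97 with 1 kidney left out). None of these 3 pairs had an adjusted p under 0.05, and no r was computed over the macaque kidneys alone.

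To see which other genes varied alike, log2(CPM + 1) was centred within each species over the 11 primate kidneys, and each of 7484 other genes with a mean of at least 20 CPM was ranked by its Pearson r with Aqp2, Slc12a3 or Umod. These rankings are descriptions over 11 libraries. Slc12a1 ranked 2nd for Umod (r = 0.94), behind the gene with the ID ENSMUSG00000039959 (0.95), and Kcnj1 ranked 104th (0.79). Aqp3 ranked 43rd for Aqp2 (r = 0.80), whose nearest gene was ENSMUSG00000019850 (0.94), while the sodium channel subunit Scnn1g ranked 303rd (0.64). For Slc12a3 the nearest was ENSMUSG00000026259 (0.90), and Slc12a1 stood 65th from the bottom (r = -0.74). Over the 15 species and organ groups, by the mean profile of the set, Scnn1g ranked 3rd, Kcnj1 5th, Cldn8 6th and Slc12a1 7th of 7477 genes with r of 0.992 to 0.996, and the nearest gene outside the set was ENSMUSG00000006269 (0.997). Aqp3, Scnn1a and Scnn1b, whose lowest kidney lay within 3-fold of the highest library of another organ, ranked 96th, 106th and 97th. That profile is the mean of the set itself, whose genes were chosen as kidney genes. High ranks of the set's own genes are therefore built in, and are no evidence that these genes vary together.

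The single bear kidney held all 10 genes, each at least 4-fold above the single bear liver. Of 12596 genes, 16.6% were at least 4-fold higher in the bear kidney, and the comparison has no replicate check. Umod was at 1378 CPM in the kidney (exact 95% Poisson interval 1351 to 1405, for counting error only) and 0.267 CPM in the liver (0.0324 to 0.966). Scnn1a differed least, at 24.1 CPM in the kidney (20.6 to 27.9) and 3.81 CPM in the liver (2.54 to 5.49), a ratio of 6.32. Aqp2 was at 10.3 CPM in the kidney (8.12 to 12.9) with no count in the liver, a ratio of at least 25.7. The bear ratios and the 4-fold count rest on CPM, without TMM factors. For primate kidney against liver, leaving those factors out raised the all-gene median by 1.41 in baboon and 1.24 in macaque, in log2 units. The bear ratios are therefore not comparable with the TMM fold changes of the primates.

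Against the 11 primate kidneys, the bear kidney was in the range for Aqp3, Scnn1b and Slc12a3 and below it for the other 7. The share of all genes below that range was not computed, so this count shows nothing particular to the set. Aqp3 was at 55.6 CPM in bear, against 24.7 to 212.1 CPM in the primates, and Slc12a3 at 262.3 CPM, against 182.3 to 1045 CPM. Aqp2 lay lowest, at 3.63% of the primate median of 284.1 CPM, followed by Slc12a1 at 7.14%, Umod at 8.30% and Scnn1a at 8.37% of theirs. Kcnj1 was at 12.7%, Cldn8 at 22.7% and Scnn1g at 41.8% of the primate median. Umod was 0.138% of all counts in the bear kidney and ranked 56th. Bear counts per Slc12a3 were below every primate kidney for Slc12a1 (0.715), Umod (5.25) and Aqp2 (0.0393). Umod per Slc12a1 was 7.34 in bear, inside the macaque range, whereas Aqp3 per Aqp2 was 5.39, above every primate kidney. Bear reads, like all others, were listed under mouse IDs, and the part of read assignment, collection and single animal in these differences was not tested.

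Outside the kidney, the neural organs were compared with liver in both species, a comparison added after the values were seen. In baboon, 3 of the 10 genes were called higher and 1 lower in brain than in liver, where 42.4% of all genes tested were called higher and 40.0% lower. In macaque, 4 were called higher and 2 lower in cerebellum than in liver, where 42.1% were called higher and 39.8% lower. In these fits 6 of the 10 genes in baboon and 5 in macaque had passed the filter on low counts only through the kidney libraries. With filter and fit restricted to the 12 brain and liver libraries of baboon, 4 genes were tested: Slc12a3 was called higher, Scnn1a lower, and Slc12a1 and Umod were not called, where 43.0% of all genes were called higher and 39.4% lower. Over the 12 cerebellum and liver libraries of macaque, 5 were tested: Scnn1b, Scnn1g and Slc12a3 were called higher, Scnn1a lower, and Umod was not called, where 42.6% of all genes were called higher and 39.1% lower. Aqp2 and Cldn8 were at or near the limit of 3 read pairs over a group in these organs, and no fold is given for them. With library totals alone the median over all genes moved by 1.43 in baboon and 1.45 in macaque. A fold between CPM values is therefore larger than the fitted one for a gene higher in the neural organ, and smaller for a gene lower there.

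Scnn1a was lower in the neural organs, where baboon brains had 0.374 to 1.14 CPM and macaque cerebella 0.245 to 3.27 CPM, against the liver values above. Its log2 fold change over liver was -4.54 ± 0.27 in baboon brain (edgeR adjusted p = 9.51e-12) and -3.93 ± 0.39 in macaque cerebellum (edgeR adjusted p = 3.03e-08). Scnn1b was higher in cerebellum than in liver, where it reached at most 0.176 CPM, by 6.47 ± 0.71 on the log2 scale (edgeR adjusted p = 1.37e-07). In baboon brain against baboon liver Scnn1b, tested through its kidney counts, was not called (0.94, 95% interval -0.42 to 2.31), but was with library totals alone (2.34, edgeR adjusted p = 0.00182) and without baboon brain 6 (1.21, edgeR adjusted p = 0.0417). Brain and cerebellum are different regions taken from different species, and cannot be told apart from species here. Scnn1g was at least 2.80-fold higher in baboon brain and at least 8.88-fold higher in macaque cerebellum, each against liver, and in baboon it too was tested through its kidney counts.

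Slc12a3 was higher in baboon brain than in liver (log2 fold change 2.38 ± 0.53, edgeR adjusted p = 0.000405). In macaque it totalled 133 counts over the 6 cerebella and 2 over the 6 livers, a ratio of 34.1 (exact 95% Poisson interval 6.00 to 1346; edgeR adjusted p = 1.14e-06). Slc12a1 was called higher in macaque cerebellum than in liver (1.36 ± 0.47, edgeR adjusted p = 0.0136), with 72 counts over the cerebella and 14 over the livers, in a test it entered through its kidney counts. It was not called in baboon brain (0.94, 95% interval -0.17 to 2.04), except with library totals alone (2.36, edgeR adjusted p = 0.000257), with DESeq2 (1.03, DESeq2 adjusted p = 0.0319), with all 48 libraries fitted or without baboon liver 1. Kcnj1 totalled 41 counts over the 6 cerebella and 40 over the 6 livers of macaque, at 0.398 ± 0.180 and 0.282 ± 0.157 CPM (SD, n = 6 each). It entered the test only through its kidney counts, and its call as lower in cerebellum (-0.92 ± 0.40, edgeR adjusted p = 0.0425), which changed sign with library totals alone (0.51), gives no direction. Aqp3 was called higher in baboon brain than in liver (2.56 ± 0.94, edgeR adjusted p = 0.0177), again in a test entered through kidney, with 0.250 to 11.02 CPM in brains and 0 to 0.314 CPM in livers. Without baboon brain 2, which held the 11.02 CPM, the log2 fold change was 1.08 (edgeR adjusted p = 0.173).

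Baboon liver 1 held the most of 6 of the 10 genes among the baboon livers: Aqp2, Aqp3, Scnn1b, Slc12a1, Umod and Kcnj1. Its Umod was at 4.79 CPM, and the other baboon livers were at 1.87 CPM or less. Without it, the log2 fold change of baboon kidney over liver was 12.37 for Umod, 12.95 for Slc12a1, 9.59 for Kcnj1 and 11.75 for Aqp2, against 11.78, 12.23, 8.97 and 10.49 with it. All 10 genes were called with and without this library.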

How the data were processed

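Bulk RNA sequencing was done on 48 libraries from 4 organs of 8 species. The authors deposited 1 table of raw counts per gene, 16816 mouse Ensembl IDs by 48 libraries, without normalization. STAR and featureCounts are named in the submitters' processing notes; versions, genome builds, strand setting and the way reads of 8 species came to mouse IDs are not named in the labels or file headers used here. Each of the 48 columns carries the name of 1 sample, which leaves 0 columns over. Low deposited counts, 1 to 20, were even in 94.3% to 99.4% of cases per library, so 2 counts were taken as 1 read pair.

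Libraries were grouped by species and organ. Counts were tested with edgeR 4.0.16 in R 4.3.3 (TMM factors, filterByExpr defaults, quasi-likelihood F test, two-sided, Benjamini-Hochberg over all genes tested), on the 18 baboon, the 17 macaque or the 11 primate kidney libraries. All 10 genes passed the filter in every fit that held kidney libraries, 6 of them in baboon and 5 in macaque only through those libraries. Standard errors come from the F statistic, and 95% intervals from a t quantile with the fit's degrees of freedom. Nothing in the labels says that replicates came from separate animals, so p-values measure only the spread between these samples, which may be technical. Where a group had 0 counts, the fold is a bound against 3 read pairs (6 counts) over the group; where it had 1 to 3 read pairs, the ratio is given with an exact 95% Poisson interval. The Poisson intervals and the bounds cover counting error only. CPM, spread, ratios and permutation tests were computed in Python 3.11.15 with pandas 2.3.3 and SciPy 1.17.1, and DESeq2 1.42.0 was an alternative. The edgeR step was tested on simulated data.

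Same-numbered macaque libraries deviated together in kidney and liver (correlation of deviations 0.185 to 0.228 over 5 pairs) and in kidney and cerebellum (0.115 to 0.144), so the number marks a pair there, as found from the data and not from the labels. No 2 libraries of a group agreed within sampling noise; the smallest chi-square per degree of freedom of any pair was 8.23.

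The rule for the members uses no measured value, but members, lists and comparisons were chosen with earlier results of these data known. By the rule for named genes all 10 members are named, with the genes nearest to Aqp2, Slc12a3, Umod or the mean profile of the set; of these the first of each is printed. Another 12 gene lists (105 symbols), among them other kidney segments and neural, liver and blood markers, could not be used, since 0 mouse IDs matched the given gene table. The comparison of members with a proximal tubule index was not run for that reason.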

Additional observations from a re-analysis of the deposited data

Results flagged for a closer look

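In 47 groups of 5 or 6 libraries, 1 per gene and group with counts, the highest or lowest library was set against the others by Dixon's criterion, which chance meets in about 1 of 20 groups. It was met 5 times. Baboon kidney 3 held 705 CPM of Aqp2, where the other 5 baboon kidneys held 144.2 to 314.8 CPM, and 212 CPM of Aqp3, where the others held 43.1 to 87.8 CPM. Baboon brain 2 held 11 CPM of Aqp3, far above the 0.250 to 1.78 CPM of the other baboon brains. Baboon liver 1 held 4.79 CPM of Umod and 0.314 CPM of Aqp2, from 8 counts of Aqp2.

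Libraries outside the tested comparisons, those of white-footed mouse, tube-nosed bat, beaver, chipmunk and sugar glider, held 30 values above the limit that a count of 0 allows. Scnn1a was at 3.61 and 2.53 CPM in beaver livers 1 and 2, 6.55 and 11.3 CPM in chipmunk livers, 10.6 and 3.41 CPM in sugar glider livers, 5.21 CPM in the bat liver, and 3.19 and 4.72 CPM in beaver brains. Umod was at 8.24 and 35.0 CPM in beaver livers 1 and 2, higher than in any other liver of the series. It was at 2.18 and 0.808 CPM in chipmunk livers, 4.19 CPM in sugar glider liver 1, 2.50 CPM in white-footed mouse liver, and 1.66 and 0.787 CPM in beaver brains. Aqp3 was at 12.6 CPM in the bat liver, its highest value outside the kidney, at 0.967 CPM in sugar glider liver 1, and at 2.68 and 4.07 CPM in beaver brains. Slc12a3 was at 1.11 and 1.83 CPM in beaver livers, 1.02 CPM in chipmunk liver 1 and 0.806 CPM in sugar glider liver 1. Slc12a1 was at 2.03 CPM in white-footed mouse liver, 1.13 CPM in sugar glider liver 1, 0.819 CPM in chipmunk liver 1, and 1.02 and 0.656 CPM in beaver brains. These groups have 1 or 2 libraries, no kidney of these species was analysed here, and the source of the counts was not tested.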

How the results depend on the processing

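All 40 calls of the 10 genes in kidney against another organ held under every alternative run: other scalings (library totals alone among them, added after the data were seen), DESeq2, no filter, all 48 libraries in 1 fit, the replicate block and each library left out. Between baboon and macaque kidney the count of 4 called genes was 2 with all 48 libraries fitted and ranged from 2 to 4 with a library left out; without macaque kidney 5 it was 2. Log2 fold changes near 0 changed sign there: with a library left out Aqp2 ranged from -0.25 to 0.30, Umod from -0.09 to 0.23 and Scnn1a from -0.03 to 0.23. Kcnj1 in baboon brain against liver ranged from -0.88 to 0.08. With library totals alone, log2 fold changes of brain over liver were 0.64 for Umod and 0.88 for Kcnj1, and those of cerebellum over liver were 1.07 for Aqp3, 0.83 for Umod and 0.51 for Kcnj1, whereas all 5 were below 0 with TMM; the missing factor for liver shifts all genes by 1.43 and 1.45. With kidney libraries left out of the filter and fit, an alternative added after the data were seen, 2 genes rather than 4 were called in baboon brain against liver and 4 rather than 6 in macaque cerebellum against liver, since fewer genes of the set were tested. Some calls in brain or cerebellum against liver also depended on 1 library: without baboon liver 1 Slc12a1 was called (1.65, edgeR adjusted p = 0.00753). Without baboon brain 4 Umod was called lower (-1.23, edgeR adjusted p = 0.0426), and so it was without cerebellum 3 (-1.14, edgeR adjusted p = 0.00335). With all libraries kept, the sign of Umod depended on the scaling in both species, so these 2 calls give no direction.

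With the replicate number as a block, baboon against macaque kidney had 3 called genes; Aqp2 was at -0.02, Umod at -0.18 and Scnn1g at -0.46 (edgeR adjusted p = 0.124). Same-numbered kidneys of the 2 species are different animals, and their deviations correlated at -0.0566 to 0.0365. Within baboon, each library correlated best with its own number (0.0445 to 0.252), a hint from the data only. The same was seen between cerebellum and liver of macaque (0.0484 to 0.0862). In the macaque pairs the block ended no kidney call, and in cerebellum against liver it ended that of Kcnj1 (-0.93, edgeR adjusted p = 0.0671).

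Several correlations of Aqp2 over 6 kidneys changed sign. Without the 2 farthest kidneys, Aqp2 had r of -0.17 with Scnn1a, -0.02 with Cldn8 and -0.02 with Slc12a1. With 1 kidney left out, its r ranged from -0.28 to 0.53 with Scnn1b, -0.14 to 0.91 with Scnn1g, -0.48 to 0.52 with Cldn8 and -0.64 to 0.06 with Slc12a3, whereas the sign held for Aqp3 (0.71 to 0.97), Slc12a1 (0.45 to 0.93), Umod (0.47 to 0.90), Kcnj1 (0.32 to 0.69) and Scnn1a (0.08 to 0.48). With 1 kidney left out, Slc12a3 and Slc12a1 had r of -0.95 to -0.47, and Slc12a1 and Umod 0.98 to 0.99. The cause was not tested. Depth limits Aqp2 and Cldn8 outside the kidney, where a library held at most 8 counts.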
